A study of Homo sapiens with 22 samples.

Results

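Colony stimulating factors and the interleukin 1 (IL1) system were followed through 8 genes read by symbol from the RNA-seq tables, of 20668 gene symbols listed for each sample: CSF1, CSF2, CSF3, IL1A, IL1B, IL1R1, IL1RAP and IL1RL1. RNA came from MDA-MB-231, a single triple-negative breast cancer (TNBC) cell line, so every sample shares one genetic background. For 3 days beforehand all cells had been held without phenol red in medium whose 5% serum was charcoal-stripped and thus poor in steroid hormones. They were then given vehicle, 100 nM Dex (dexamethasone, a synthetic glucocorticoid) for 2 h or 4 h, or 10 μM CpdA (a plant-derived modulator of the glucocorticoid receptor, GR) for 2 h or 4 h, with 2 samples in each of the 5 groups. Levels are RPKM, the reads on a gene scaled by its transcript length and by the mapped reads of the sample. They can be compared between samples, and between genes only as far as the transcript lengths used are right. Of the 8 genes, 7 reached 0.5 RPKM in at least 2 samples and were tested among 12713 genes; IL1RL1 did not.

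Colony stimulating factors are secreted proteins that drive the survival and maturation of myeloid cells. CSF1 (M-CSF) acts on macrophages, CSF2 (GM-CSF) on granulocytes, macrophages and dendritic cells, and CSF3 (G-CSF) on neutrophils. IL1A and IL1B are inflammatory ligands that bind IL1R1, which signals once the accessory chain IL1RAP has joined it, through MYD88 and the IRAK kinases to NF-κB and AP-1. IL1RL1 is the receptor of IL33 and uses the same accessory chain. Glucocorticoids are known to repress many cytokine genes and to induce others through GR bound to DNA.

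The libraries resembled one another in depth. Low RPKM values move in steps of 1 read, and by those steps relative depth ran from 1.0 in vehicle sample 1 to 1.21 in Dex 2 h sample 2, and both vehicle libraries were shallower than every treated one. Transcript lengths put vehicle sample 1 at an estimated depth of 51.3 Mreads (1 Mread is 1000000 reads; quartiles 50.5 and 53.0 over 287 genes). The markers of the line (VIM, CD44, EGFR, KRT8 and KRT18) were present at a summed 1880 to 2137 RPKM, ESR1 and PGR were at 0.0048 RPKM or less, and ERBB2 was at 15.9 to 21.6 RPKM. Of the leukocyte markers, PTPRC, CD3E and ITGAM stayed at or below 0.063 RPKM, whereas CD14 was at 2.17 to 2.89 RPKM in every group. TSC22D3, a direct GR target, rose from 9.79 and 8.22 RPKM in the vehicle samples to at least 302 RPKM in each Dex sample. The labels give the vehicle samples no time point, and a table of the study heads its control columns with different times, so a time effect between the vehicle samples cannot be told apart from replicate spread.

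The genes lie on 5 chromosomes of the GRCh37 assembly, the build named hg19 in the submitters' processing notes. IL1R1 (chr2:102681004-102796334, plus strand) and IL1RL1 (chr2:102927962-102968497, plus strand) sit in one receptor cluster. IL1A (chr2:113531502-113542070) and IL1B (chr2:113587328-113594393) are minus-strand neighbours separated by 45257 bases. CSF1 lies at chr1:110452864-110473614, CSF2 at chr5:131409482-131411863, CSF3 at chr17:38171614-38174066 and IL1RAP at chr3:190231840-190377539, all on the plus strand. IL1RL1 shares 95 exonic bases with IL18R1 on the same strand and IL1R1 shares 11 with the antisense gene IL1R1-AS1. The sources used here do not say whether the counting used strand.

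Upstream sequence is shown for genes whose levels moved with the ligands, and for IL1A, so that the elements often discussed for GR, AP-1 and NF-κB can be seen. RefSeq promoter windows (GRCh38.p14) were available for 6 of the 8 genes, CSF1 and CSF3 having no entry, and each was placed on GRCh37 by exact match. The stretches below, 5′ to 3′ on the gene's strand, run through the 250 bases before the annotated start and stop where an annotated exon begins. CSF2 (chr5:131409232-131409481, plus strand), IL1A (chr2:113542071-113542320, minus strand), IL1B (chr2:113594394-113594606, minus strand), IL1R1 (chr2:102758956-102759205, plus strand) and IL1RAP (chr3:190231624-190231839, plus strand) are given. Capitals mark matches on either strand to the AP-1 motif TGANTCA or the NF-κB motif GGGANNNNCC, and no match overlaps another.
CSF2: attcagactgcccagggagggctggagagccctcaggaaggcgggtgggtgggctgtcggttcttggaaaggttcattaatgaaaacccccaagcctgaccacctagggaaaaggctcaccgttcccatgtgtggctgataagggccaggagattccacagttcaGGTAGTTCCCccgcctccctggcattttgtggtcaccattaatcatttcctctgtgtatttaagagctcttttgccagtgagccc
IL1A: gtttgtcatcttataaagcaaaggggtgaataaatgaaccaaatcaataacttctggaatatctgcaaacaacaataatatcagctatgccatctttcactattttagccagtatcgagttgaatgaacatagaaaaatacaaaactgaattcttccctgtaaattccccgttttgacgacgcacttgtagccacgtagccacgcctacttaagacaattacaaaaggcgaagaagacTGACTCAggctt
IL1B: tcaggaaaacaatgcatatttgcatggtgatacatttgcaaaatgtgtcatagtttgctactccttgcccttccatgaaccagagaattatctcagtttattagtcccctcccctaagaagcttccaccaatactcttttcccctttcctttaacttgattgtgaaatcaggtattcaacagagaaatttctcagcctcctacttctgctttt
IL1R1: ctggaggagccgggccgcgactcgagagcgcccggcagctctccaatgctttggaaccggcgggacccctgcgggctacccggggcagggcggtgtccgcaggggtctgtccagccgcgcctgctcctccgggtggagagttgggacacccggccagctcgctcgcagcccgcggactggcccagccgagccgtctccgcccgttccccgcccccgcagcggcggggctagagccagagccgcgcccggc
IL1RAP: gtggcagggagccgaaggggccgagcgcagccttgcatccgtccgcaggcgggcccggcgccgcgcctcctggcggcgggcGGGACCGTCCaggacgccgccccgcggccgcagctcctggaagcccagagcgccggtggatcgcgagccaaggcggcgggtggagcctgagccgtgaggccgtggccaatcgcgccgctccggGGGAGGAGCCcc

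CSF2 held 1 NF-κB match, whose last base lay 76 bases upstream of the start. IL1RAP held 2, with last bases 160 and 37 bases upstream. IL1A held the AP-1 match, 6 bases upstream. Windows of the same length held the NF-κB motif in 22.6% and the AP-1 motif in 6.57% of 35116 promoters in the table, so the NF-κB motif is common in such windows. The GR palindrome AGNACANNNTGTNCT occurred in 16 of the 35116 windows and in none of those of the 6 genes. IL1B and IL1R1 had no match to any of the 3 motifs, which says only that these letters are absent from these windows.

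CSF3 rose steeply with Dex and was lower with CpdA. Its levels were 0.221 and 0.185 RPKM in vehicle samples 1 and 2, 2.80 and 2.91 RPKM at Dex 2 h, and 3.75 and 3.01 RPKM at Dex 4 h. With CpdA they were 0.0652 and 0.0877 RPKM at 2 h and 0.0859 and 0.0665 RPKM at 4 h. All 4 Dex samples thus lay far above both vehicle samples and all 4 CpdA samples below them. Against vehicle, mean RPKM was 14.1 times higher at Dex 2 h and 16.6 times higher at Dex 4 h, and on the log2(RPKM + 0.1) scale the differences were 3.29 (SE 0.17) and 3.52 (SE 0.17), with limma adjusted p-values of 2.1e-06 and 6.3e-07. CSF3 passed the filter on low values only through its Dex samples, so that a change with Dex was built into its being tested.

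The lower CSF3 level with CpdA rested on few reads. Values of this gene are whole multiples of 1 read, which gives an estimated 20 and 17 reads in the vehicle samples and 7, 9, 9 and 7 in the CpdA samples, against 288 to 359 with Dex. Summed over samples, the depth-adjusted ratio of vehicle to CpdA was 2.66, with an exact 95% interval of 1.61 to 4.42 that covers counting error only. The difference was −0.78 on the log2 scale at both times (SE 0.17, limma adjusted p = 0.030 at 2 h and 0.012 at 4 h). Neither call held with a pseudocount of 1 (adjusted p = 0.305 and 0.198) or with only the 4 samples of the comparison (0.183 and 0.099). The 2 h call was also lost under quantile normalization (0.124), and it did not hold without either vehicle sample, either CpdA 2 h sample or either Dex 2 h sample (0.066 to 0.201); at 4 h it was lost without vehicle sample 1 (0.055) or CpdA 4 h sample 2 (0.077).

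CSF2 fell with both ligands, and further with Dex. The vehicle samples themselves stood apart, at 12.8 RPKM in sample 1 and 6.08 RPKM in sample 2. Dex brought CSF2 to 1.14 and 1.19 RPKM at 2 h and to 0.353 and 0.612 RPKM at 4 h. CpdA brought it to 3.54 and 2.94 RPKM at 2 h and to 1.55 and 1.54 RPKM at 4 h. Every treated sample was below the lower vehicle sample, and the order of the group means was vehicle, CpdA 2 h, CpdA 4 h, Dex 2 h and Dex 4 h. Mean RPKM was 8.10 times lower than vehicle at Dex 2 h (log2 difference −2.82, SE 0.31, limma adjusted p = 0.00031) and 19.6 times lower at Dex 4 h (−3.97, SE 0.31, adjusted p = 1.6e-05). With CpdA it was 2.91 times lower at 2 h (−1.42, adjusted p = 0.030) and 6.11 times lower at 4 h (−2.44, adjusted p = 0.00077).

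How far CSF2 fell depended on which vehicle sample it was set against. At Dex 4 h the level was 0.0378 of vehicle sample 1 and 0.0793 of vehicle sample 2, and at CpdA 2 h it was 0.254 and 0.533. The CpdA 2 h call was lost without vehicle sample 1 (log2 difference −0.89, adjusted p = 0.062), and also without either sample of CpdA 2 h, Dex 2 h or CpdA 4 h (adjusted p = 0.056 to 0.188), and under 4 other settings, among them no filter on low values (0.055 to 0.106). Both Dex calls and the CpdA 4 h call held without any one sample.

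CSF1 was the most abundant of the 8 genes in every group and fell by a smaller factor. It read 79.8 and 72.2 RPKM in the vehicle samples, 53.8 and 56.4 RPKM at Dex 2 h, and 43.3 and 45.2 RPKM at Dex 4 h. The CpdA samples read 60.5 and 63.4 RPKM at 2 h and 50.0 and 52.3 RPKM at 4 h. No treated sample reached the lower vehicle value, and within each ligand the 4 h samples were below the 2 h samples. The log2 differences from vehicle were −0.46 and −0.78 with Dex and −0.29 and −0.57 with CpdA (SE 0.057 each, limma adjusted p between 9.8e-06 and 0.018). That for CpdA 2 h was not called without vehicle sample 1 (−0.22, adjusted p = 0.051) or without either CpdA 2 h sample (0.169 and 0.078), nor with no filter on low values (0.054) or with only the 4 samples of the comparison (0.058).

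**Figure D1:**
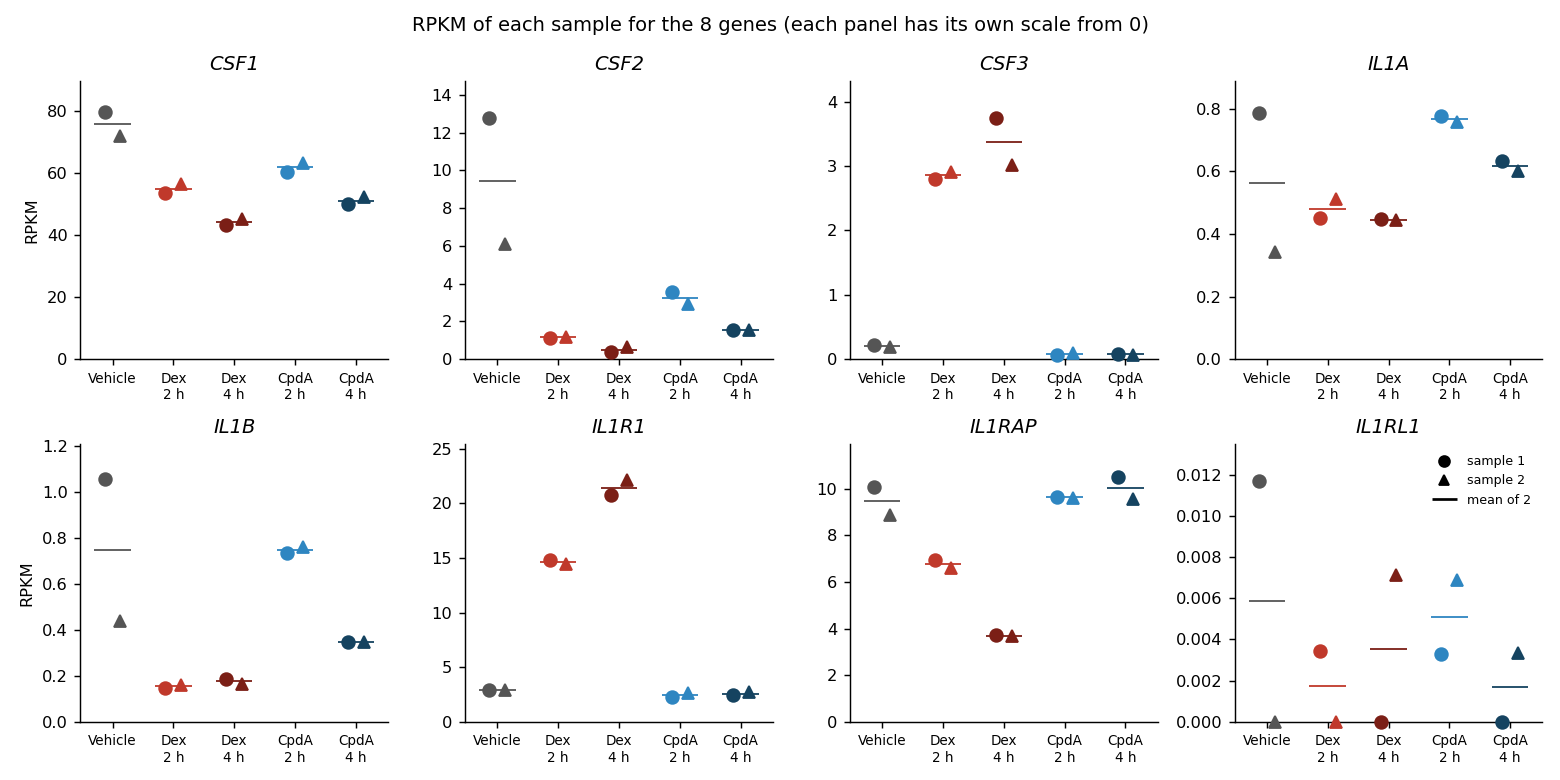
RPKM (vertical axis, linear from 0, a scale for each panel) of the 8 genes in the 5 groups, with circles for sample 1, triangles for sample 2 and a line at the mean of 2. CSF3 and IL1R1 are high only in the Dex groups of these libraries, and the vehicle circles of CSF2, IL1A and IL1B stand well above the vehicle triangles.

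IL1B, the secreted IL1 ligand, fell with Dex from a low level. It read 1.05 RPKM in vehicle sample 1 and 0.437 RPKM in vehicle sample 2. Dex samples read 0.149 and 0.161 RPKM at 2 h and 0.185 and 0.166 RPKM at 4 h. CpdA samples read 0.736 and 0.759 RPKM at 2 h, between the vehicle samples, and 0.349 and 0.347 RPKM at 4 h, below both. IL1B was 4.81 times lower than vehicle at Dex 2 h (log2 difference −1.63, SE 0.31, limma adjusted p = 0.0086) and 4.25 times lower at Dex 4 h (−1.52, adjusted p = 0.0059). These factors depended on the vehicle sample, since the Dex 2 h level was 0.147 of vehicle sample 1 and 0.355 of vehicle sample 2, and the Dex 4 h level 0.166 and 0.402. It was not called at CpdA 2 h (0.11, 95% interval −0.59 to 0.80) or at CpdA 4 h (−0.81, interval −1.51 to −0.11, adjusted p = 0.099).

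The IL1B estimates rest on 13 to 15 reads in the Dex samples and on 81 and 34 in the vehicle samples, and the gene passed the filter through vehicle sample 1 and the CpdA 2 h samples alone. Its Dex 2 h call was lost without Dex 2 h sample 1 (adjusted p = 0.061) and with only the 4 samples of that comparison in the fit (0.064), and a CpdA 4 h call appeared without vehicle sample 2 (−1.37, adjusted p = 0.0036).

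For IL1A, the membrane-associated IL1 ligand, the sign of every ligand effect turned on the choice of vehicle sample. The vehicle samples read 0.786 and 0.342 RPKM and thereby bracketed all 8 treated samples. Dex samples read 0.451 and 0.511 RPKM at 2 h and 0.447 and 0.444 RPKM at 4 h, while CpdA samples read 0.776 and 0.759 RPKM at 2 h and 0.634 and 0.602 RPKM at 4 h. Against the mean of both vehicle samples no difference was called (limma adjusted p between 0.382 and 0.883). The 95% intervals were wide, from −0.73 to 0.51 at Dex 2 h and from −0.15 to 1.09 at CpdA 2 h on the log2 scale, and the former includes the change seen in CSF1. Without vehicle sample 2, IL1A was lower at Dex 4 h (−0.70, adjusted p = 0.018), whereas without vehicle sample 1 it was higher at CpdA 2 h (0.97, adjusted p = 0.013) and CpdA 4 h (0.70, adjusted p = 0.031).

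IL1R1, the signalling receptor of both ligands, rose with Dex alone in these libraries. It read 2.89 and 2.94 RPKM in the vehicle samples, 14.9 and 14.4 RPKM at Dex 2 h, and 20.7 and 22.2 RPKM at Dex 4 h. CpdA samples read 2.27 and 2.65 RPKM at 2 h and 2.44 and 2.70 RPKM at 4 h. The 4 Dex samples were therefore separated from all others by a wide margin, and the CpdA samples lay slightly below vehicle. IL1R1 was 5.02 times higher than vehicle at Dex 2 h (log2 difference 2.29, SE 0.082, limma adjusted p = 2e-07) and 7.35 times higher at Dex 4 h (2.84, SE 0.082, adjusted p = 3.1e-08). The CpdA differences of −0.24 (95% interval −0.43 to −0.06) and −0.18 (−0.36 to 0.01) did not pass the test (adjusted p = 0.131 and 0.171). None of the Dex calls of IL1R1 was lost under any alternative setting or without any one sample.

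IL1RAP, the accessory chain, moved the other way. Its levels were 10.1 and 8.86 RPKM in the vehicle samples, 6.94 and 6.58 RPKM at Dex 2 h, and 3.71 and 3.68 RPKM at Dex 4 h. CpdA samples read 9.66 and 9.62 RPKM at 2 h and 10.5 and 9.56 RPKM at 4 h. Dex samples were below every vehicle and CpdA sample, and the CpdA samples overlapped vehicle. IL1RAP was 1.40 times lower at Dex 2 h (log2 difference −0.48, SE 0.072, limma adjusted p = 0.0024) and 2.56 times lower at Dex 4 h (−1.33, SE 0.072, adjusted p = 1.4e-06). With CpdA the differences were 0.03 (95% interval −0.14 to 0.19) and 0.08 (−0.08 to 0.25), neither called. In RPKM, which allows for transcript length, IL1RAP exceeded IL1R1 in all 6 vehicle and CpdA samples and IL1R1 exceeded IL1RAP in all 4 Dex samples. How transcripts were joined into each symbol is not given, so this order of the genes depends on lengths that could not be checked.

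IL1RL1 was barely read. Its values of 0 to 0.0117 RPKM correspond to at most 3 reads in a library and 10 reads over all 10 libraries, and 4 libraries had none. A library with no read allows up to 3 reads, or 0.00966 to 0.0116 RPKM in those libraries, for counting error only. No difference between groups could be seen at this depth.

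Of the 8 genes, IL1RL1 was too low to test and 6 of the 7 genes tested were called at Dex 2 h (2 higher, 4 lower), where 10.3% of all genes tested were called, 4.49% higher and 5.82% lower. At Dex 4 h the same genes and directions were called, beside 27.4% of all genes (9.26% higher, 18.2% lower). CSF1, CSF2 and CSF3 were called lower at CpdA 2 h and at CpdA 4 h, where 6.18% and 20.5% of all genes were called (4.29% and 13.8% lower, 1.89% and 6.76% higher), and none of the 7 was called higher. These counts share the same vehicle samples and include CSF3, which passed the filter through its Dex values, and IL1B, which passed it through vehicle sample 1 and the CpdA 2 h samples. RNA from bulk cultures cannot tell fewer expressing cells from less RNA per cell. The study calls the paired samples of a group biological replicates, and neither it nor the labels describe how they were kept apart; p-values measure the spread between these samples.

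**Figure D2:**
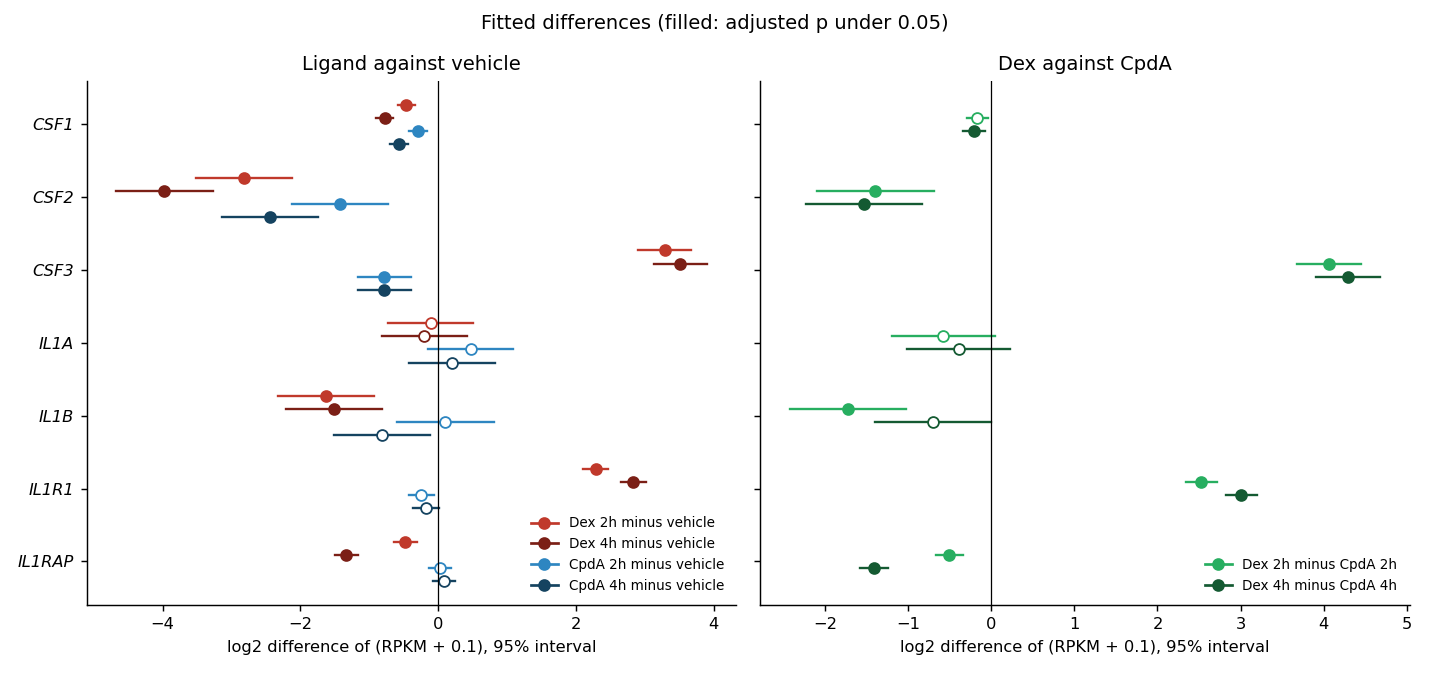
Fitted log2 differences of RPKM + 0.1 with 95% intervals for the 7 genes tested, ligand against vehicle on the left and Dex against CpdA on the right; filled points passed an adjusted p of 0.05. CSF3 and IL1R1 lie to the right for Dex only, at 3.29 and 2.29 after 2 h, and IL1A has open points throughout.

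The vehicle samples differed more for some of these genes than for nearly all others. Between sample 2 and sample 1 the log2 gap was −1.06 for CSF2, −1.004 for IL1A and −1.11 for IL1B, whereas the median absolute gap of all genes tested was 0.083. Only 0.889%, 0.913% and 0.826% of genes tested had a larger absolute gap. These 3 had the widest gaps of the 7 genes and are described for that reason. The depth-adjusted ratio of sample 1 to sample 2 was 2.10 for CSF2 (514 and 248 reads, exact 95% interval 1.80 to 2.45), 2.30 for IL1A (118 and 52 reads, 1.65 to 3.25) and 2.41 for IL1B (81 and 34 reads, 1.60 to 3.72), intervals that cover counting error only. For CSF1, CSF3, IL1R1 and IL1RAP the gap was between −0.18 and 0.02. Set against each vehicle sample in turn, both treated samples were on the same side of both vehicle samples in 21 of 28 combinations of gene and group. The exceptions were all 4 groups of IL1A, CpdA 2 h for IL1B, and both CpdA groups for IL1RAP. All 28 share the same 2 vehicle samples, and the share over all genes tested was not computed, so nothing is read from this count.

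**Figure D3:**
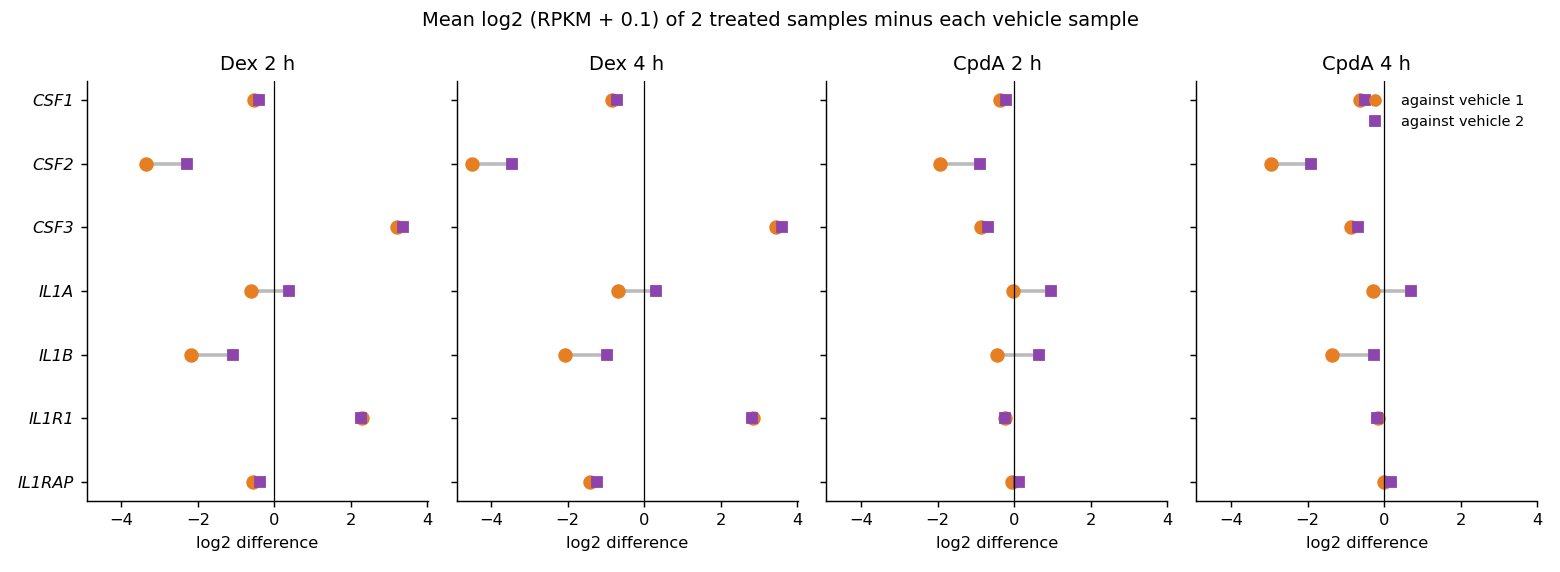
Mean log2(RPKM + 0.1) of the 2 treated samples minus vehicle sample 1 (circles) or vehicle sample 2 (squares) for the 7 genes tested in the 4 treated groups, with the zero line in black. The pair of points straddles zero for IL1A in every group, whereas for IL1R1 the circle and square nearly coincide, at 2.30 and 2.28 for Dex 2 h.

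Setting 100 nM Dex directly against 10 μM CpdA, doses that differ, leaves the vehicle levels out of the difference. At 2 h, CSF3 (log2 difference 4.07, Dex minus CpdA) and IL1R1 (2.53) were higher with Dex, and CSF2 (−1.40), IL1B (−1.73) and IL1RAP (−0.51) were lower, 5 of 7 genes beside 13.7% of all genes tested. Of these, CSF3 passed the filter only through its Dex samples, and IL1B through vehicle sample 1 and the CpdA 2 h samples, so the group where each is high helped to admit it. At 4 h, CSF3 (4.30) and IL1R1 (3.01) were again higher, and CSF1 (−0.21), CSF2 (−1.53) and IL1RAP (−1.42) were lower, beside 33.4% of all genes. The limma adjusted p-values of these calls ran from 1.8e-08 for IL1R1 at 4 h to 0.019 for CSF1 at 4 h. Differences of CSF1 at 2 h (−0.17, adjusted p = 0.092), IL1B at 4 h (−0.70, adjusted p = 0.114) and IL1A at 2 h and 4 h (−0.58 and −0.40, adjusted p = 0.243 and 0.311) were not called. The CSF2 call at 2 h was lost without any one of its 4 samples (adjusted p = 0.056 to 0.116) and with no filter on low values (0.069), and the CSF1 call at 4 h without Dex 4 h sample 1 (0.074) or CpdA 4 h sample 2 (0.134).

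With both times pooled, the 4 Dex samples did not overlap the 4 CpdA samples for 6 of the 7 genes tested, all but CSF1. Of all genes tested, 26.0% showed no overlap. IL1RL1, which was not tested, overlapped. CSF3 passed the filter only through its Dex samples, and IL1B through vehicle sample 1 and the CpdA 2 h samples. For both, the filter favoured a separation, so it adds no support there. IL1A was among the 6, at 0.444 to 0.511 RPKM with Dex and 0.602 to 0.776 RPKM with CpdA. For each of the 6 the exact permutation p (two-sided) was 0.0286, the smallest that 4 against 4 samples allow, and for CSF1 it was 0.2. This test ignores time, and the CSF1 overlap lay between Dex 2 h and CpdA 4 h: within each time both Dex samples were below both CpdA samples. In a fit without the vehicle samples, an alternative chosen after seeing how far they differed, the 2 h differences of IL1A (adjusted p = 0.025) and CSF1 (0.049) and the 4 h difference of IL1B (0.016) passed the test.

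Between 2 h and 4 h of Dex, CSF1 and IL1RAP fell further and IL1R1 rose further. The log2 differences, 4 h minus 2 h, were −0.32 for CSF1 (SE 0.057, limma adjusted p = 0.0077), −0.85 for IL1RAP (SE 0.072, adjusted p = 0.00021) and 0.55 for IL1R1 (SE 0.082, adjusted p = 0.0031), and 13.6% of all genes tested were called. CSF2 was called lower as well (−1.15, SE 0.31, adjusted p = 0.041), but its Dex 4 h samples differed 1.74-fold between themselves, and without Dex 4 h sample 1 the difference was −0.83 (adjusted p = 0.169); removing either sample of Dex 2 h, CpdA 2 h or CpdA 4 h also ended that call (0.063 to 0.162), as did 7 other settings, the replicate block among them (0.051 to 0.170). The CSF1 call was lost without Dex 2 h sample 2 (adjusted p = 0.067). CSF3, IL1A and IL1B were not called, with differences of 0.23, −0.09 and 0.11.

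Between 2 h and 4 h of CpdA, CSF1 fell further (−0.28, SE 0.057, limma adjusted p = 0.016), where 12.4% of all genes tested were called; without any one of the 4 CpdA samples it was not called (0.072 to 0.125). CSF2 (−1.02, adjusted p = 0.065) and IL1B (−0.92, adjusted p = 0.087) missed the threshold, although the 2 h and 4 h samples did not overlap for either gene. Without vehicle sample 1, both passed (adjusted p = 0.014 and 0.012), as they did without vehicle sample 2 (0.014 and 0.0097) and in the fit without either (0.015 and 0.013). These differences do not use the vehicle levels, which enter only through the shared estimate of spread. IL1R1, IL1RAP and CSF3 differed by 0.06, 0.06 and −0.0015 on the log2 scale, none of them called.

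Most of the remaining genes of the same families were low. Of the colony stimulating factors, IL34, the second ligand of the CSF1 receptor, stayed at 0.072 to 0.412 RPKM. Of the CSF receptors, CSF1R was tested and not called in any comparison (0.376 to 0.716 RPKM), while CSF2RA, CSF2RB and CSF3R did not exceed 0.0954 RPKM. RNA of the CSF receptors was thus far scarcer than that of CSF1, at 43.3 RPKM or more in every sample.

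Among the other IL1 family ligands, IL18 was the only one past the filter. It read 12.2 and 12.5 RPKM in the vehicle samples and 16.1 and 15.4 RPKM at CpdA 4 h, where it was called higher (log2 difference 0.35, SE 0.085, limma adjusted p = 0.020). IL1RN, the natural antagonist of IL1R1, read 0.041 to 0.166 RPKM. IL33, IL36B, IL36G, IL36RN and IL37 each stayed at 0.106 RPKM or less. IL36A and IL1F10 were not used here.

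Among the other receptors, IL1RL2, the IL36 receptor, lies 7131 bases beyond IL1R1 on the same strand. It read 0.417 and 0.470 RPKM in the vehicle samples and 0.864 and 0.870 RPKM at Dex 4 h, where it was called higher (0.83, SE 0.20, adjusted p = 0.014). IL1RAPL1, a relative of IL1RAP, read 4.60 and 3.42 RPKM in the vehicle samples and 0.916 and 1.36 RPKM at Dex 4 h (−1.74, SE 0.17, adjusted p = 8.3e-05). SIGIRR, an inhibitory receptor of the family, was tested and not called against vehicle (3.80 to 5.49 RPKM). IL1R2, a decoy receptor, and IL18R1 stayed at 0.065 RPKM or less, and IL18RAP and IL1RAPL2 were not used here.

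Genes downstream of the receptor were counted beside all genes tested. Of 13 tested genes of IL1 receptor signalling, 0 were higher and 1 was lower at Dex 2 h, 2 were higher and 2 lower at Dex 4 h, 0 were called at CpdA 2 h and 2 were lower at CpdA 4 h. Over all genes 10.3%, 27.4%, 6.18% and 20.5% were called in the same order, so the counts give no result about this list. The median log2 difference of the list at Dex 4 h was −0.05, beside −0.05 for all genes tested. IRAK3, an inhibitor of the pathway, read 0.206 and 0.228 RPKM in the vehicle samples and 0.640 and 0.860 RPKM at Dex 4 h (1.41, SE 0.20, adjusted p = 0.00075). IRAK2, a kinase that carries the signal onward, read 10.7 and 7.94 RPKM in the vehicle samples and 4.96 and 5.19 RPKM at Dex 4 h (−0.85, SE 0.11, adjusted p = 0.00049). At Dex 2 h the called gene was PELI1, a ubiquitin ligase (−0.64), and at CpdA 4 h the called genes were TAB1 (−0.36) and MYD88 (−0.17).

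CASP1, an enzyme that cuts IL1B into its active form, did not exceed 0.194 RPKM. Whether active IL1B was made was not tested. Of 7 tested genes of inflammasome processing, NLRP3, a sensor protein, was higher at Dex 2 h (1.43 against 0.550 RPKM, log2 difference 1.23, adjusted p = 0.0022) and lower at CpdA 4 h (0.168 RPKM, −1.28, adjusted p = 0.0014). CASP4 was called lower at Dex 2 h and 4 h (−0.17 and −0.31), NLRP1 lower at Dex 4 h (−0.27), and GSDMD, the pore-forming protein, lower at CpdA 4 h (−0.36); none of the 7 was called at CpdA 2 h. Of all genes tested, 10.3% were called at Dex 2 h, 27.4% at Dex 4 h, 6.18% at CpdA 2 h and 20.5% at CpdA 4 h, and nothing is read from the counts of so short a list.

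**Figure D4:**
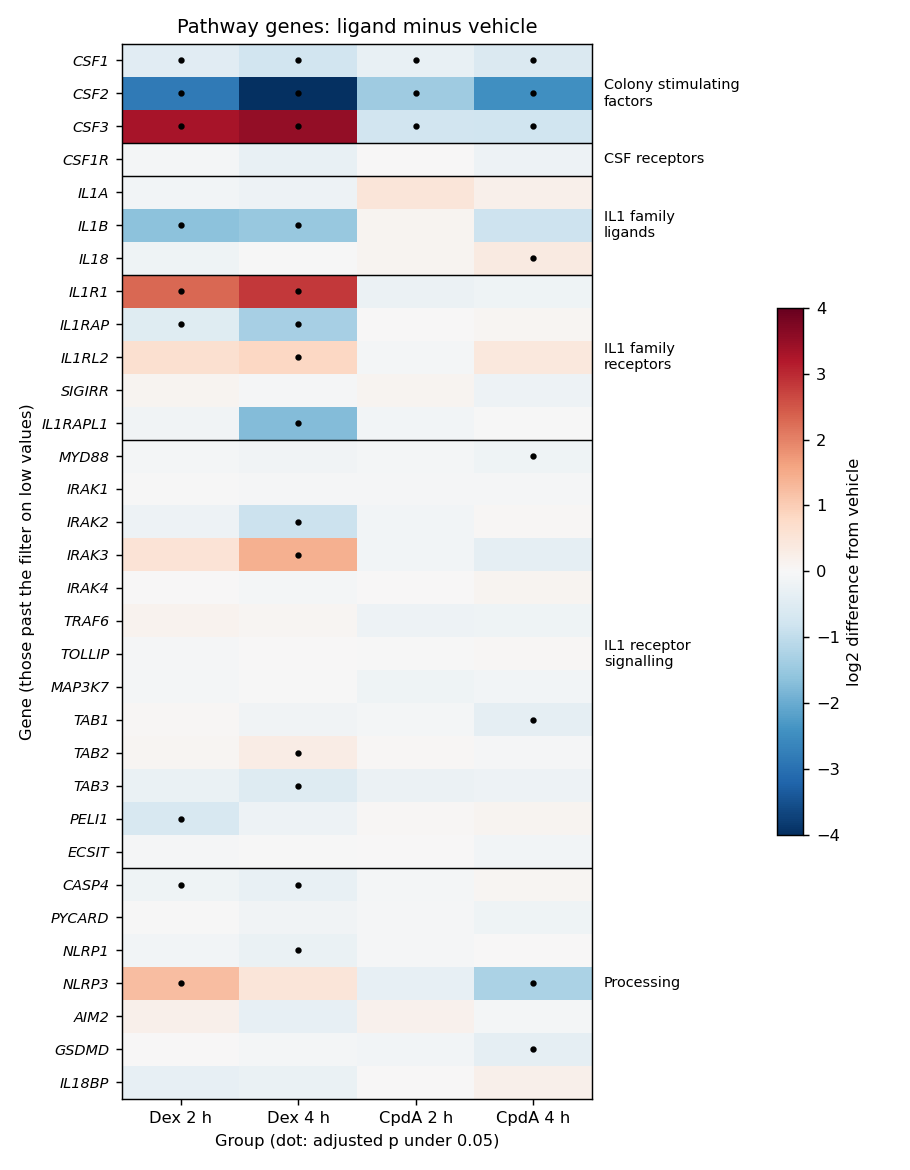
Log2 difference from vehicle (colour, from −4 in blue to 4 in red) of the tested colony stimulating factors, CSF and IL1 family receptors and ligands, IL1 signalling and processing genes (rows) in the 4 treated groups (columns), with dots for adjusted p under 0.05. CSF2 at Dex 4 h (−3.97) is the deepest blue, CSF3 at Dex 4 h (3.52) the deepest red, and most signalling rows are pale.

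Genes that IL1 is known to induce, most of them through NF-κB, were also counted. Of 14 tested, 4 were higher and 6 lower at Dex 2 h, 4 higher and 5 lower at Dex 4 h, 2 higher and 4 lower at CpdA 2 h, and 1 higher and 4 lower at CpdA 4 h, where 10.3%, 27.4%, 6.18% and 20.5% of all genes tested were called. The median log2 differences of the list were −0.51 and −0.41 with Dex and −0.31 and −0.12 with CpdA, against −0.02, −0.05, −0.02 and −0.04 for all genes. The list was chosen with earlier results of these data known, and its genes moved in both directions. Its counts and medians are therefore descriptions, and nothing is read from them. IL6, an inflammatory cytokine, read 28.1 and 11.2 RPKM in the vehicle samples, 1.29 to 1.86 RPKM with Dex, and 59.5 and 56.5 RPKM at CpdA 2 h, so it fell with Dex (−3.63 at 2 h, limma adjusted p = 7e-05) and rose with CpdA at 2 h (1.70, adjusted p = 0.016). CCL2, a monocyte chemokine, read 2.72 and 1.39 RPKM in the vehicle samples and 0.0494 and 0.0238 RPKM at Dex 4 h (−3.91, adjusted p = 1.3e-05). The 4 genes called higher at both Dex times, named after their values were seen, were BIRC3, a ubiquitin ligase (2.14 at 2 h and 1.70 at 4 h), NFKBIA, an inhibitor of NF-κB (1.60 and 1.67), TNFAIP3, an enzyme that dampens NF-κB signalling (1.44 and 1.20), and PTGS2, which makes prostaglandins (0.93 and 0.83). With CpdA, BIRC3 (−1.08), NFKBIA (−0.76) and TNFAIP3 (−0.81) were called lower at 2 h, and of the 4 only TNFAIP3 (−1.02) was called at 4 h. Vehicle samples 1 and 2 stood apart here too, at 17.1 and 8.72 RPKM for BIRC3 and 5.35 and 3.32 RPKM for TNFAIP3. For NFKBIA they read 47.9 and 37.75 RPKM. The size of these drops therefore depends on the vehicle sample. By reverse transcriptase PCR, at a time not given in its text, the study saw no CpdA effect on BIRC3 or NFKBIA.

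Messages of CSF2, IL1B and many other cytokines carry AU-rich elements, to which proteins of the ZFP36 family bind and speed decay. ZFP36 read 6.19 and 8.48 RPKM in the vehicle samples, 47.5 to 55.3 RPKM in the Dex samples and 11.8 to 14.3 RPKM in the CpdA samples. It was called higher in all 4 groups, by 2.80 at both Dex times and by 0.95 and 0.70 at the CpdA times. ZFP36L2 was higher with Dex (2.00 and 2.16) and lower with CpdA (−0.45 and −0.38). Of the 8 genes of this list, 3 were higher and 0 lower at each Dex time. At CpdA 2 h 2 were higher and 1 lower, and at CpdA 4 h 1 was higher and 1 lower. Of all genes tested, 10.3% and 27.4% were called in either direction at Dex 2 h and 4 h, and 6.18% and 20.5% at CpdA 2 h and 4 h. Nothing is read from the counts of so short a list, chosen with earlier results of these data known. Whether these levels bear on those of CSF2 or IL1B was not tested.

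The genes most like each of the 7 over the 10 samples were found by the root mean square (RMS) difference of log2 profiles centred on their own means, among 12712 others. IL1RAP had the closest neighbour, CLDN4, a tight junction protein (RMS 0.043, where IL1RAP itself spanned 1.49). APOLD1 (0.087) and LIPG (0.092) came next. CSF1 was followed by MANSC1 (0.056), TBC1D2 (0.076) and SHB (0.079), and IL1R1 by SEC14L2 (0.128), XKRX (0.133) and MT1E, a metallothionein (0.137). CSF3 was nearest to ANGPTL4, a regulator of lipoprotein lipase (0.233, where CSF3 spanned 4.54), then SMIM3 (0.236) and TFCP2L1 (0.278). CSF2 was nearest to CCL2 (0.464, where CSF2 spanned 4.83), ASB2 (0.609) and ENC1 (0.650). IL1B was nearest to SERTAD2 (0.232), SMAD7 (0.255) and JUN (0.281), and IL1A to RNF122 (0.142), SLC2A3 (0.167) and DLX4 (0.175). RNF122 read 0.677 and 0.360 RPKM in the vehicle samples, and CCL2 also differed between them. Both vehicle samples were among the 10 used to find these neighbours, so the search itself favoured genes with a shared gap. These likenesses are descriptions over samples that share libraries and groups.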

How the data were processed

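RNA-seq was analysed in 10 samples. Per the paper's methods, the authors prepared libraries with the Illumina TruSeq RNA kit, sequenced single-end reads of 50 bases, aligned them with TopHat and estimated abundances in Partek Genomics Suite. The processing notes name TopHat2 2.0.13, Partek 6.6 and hg19. The deposited values are RPKM per gene symbol, each file holding 1 sample. How transcripts were joined into symbols is not given in the sources used here. The ChIP samples of the series were not analysed here.

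The fits used log2(RPKM + 0.1) of the 12713 of 20668 genes that reached 0.5 RPKM in 2 or more samples, with no further scaling. A fold change on this scale understates that of low genes. limma 3.58.1 in R 4.3.3 (lmFit, then eBayes with an abundance trend) was fitted over the 5 groups and all 10 samples, which share 1 estimate of spread. Adjustment for multiple testing followed Benjamini and Hochberg and covered all genes kept, and a gene was called at an adjusted p under 0.05. The fit was tested on simulated data. With 2 samples against 2 no permutation test can reach that threshold. Dex and CpdA samples pooled over time were compared with an exact permutation test.

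Reads were estimated for low genes as whole multiples of the largest step that leaves every value of up to 150 reads within 0.15 of a whole number, and the deviations found were at most 0.000107. Intervals on them are exact (Clopper-Pearson) at 95%. Positions came from GENCODE v44 lifted to GRCh37. Tables and plots used Python 3.11.15, NumPy 2.4.6, pandas 2.3.3, SciPy 1.17.1 and matplotlib 3.10.9.

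The 8 genes and the gene lists were chosen with earlier results of these data known. The text names the 8 genes, the 3 genes most like each, the other members of both families, and in the other lists at most 2 called genes with the largest change per comparison. CASP1 was named outside this rule, after its values were seen, as were BIRC3, NFKBIA, TNFAIP3 and PTGS2 among the genes that IL1 induces. CXCL1 had the largest called change of that list at CpdA 4 h (log2 difference −1.60, limma adjusted p = 0.011) and is not described above. Alternatives were pseudocounts of 1 and 0.01, no filter, RPKM of at least 1 in every sample, quantile normalization, median scaling, eBayes without a trend and robust eBayes, the replicate block, only the 4 samples of a comparison, each sample left out in turn, and a fit without the vehicle samples, which was added after seeing the data.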

Additional observations from a re-analysis of the deposited data

Results flagged for a closer look

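Levels at 4 h and 2 h of the same ligand differed by the limma test of that difference for 5 gene and ligand pairs. The labels give neither vehicle sample a time, although a table of the study heads its control columns with different times. A change over time without ligand therefore cannot be told apart from a change in effect. For CSF2 the vehicle samples alone differed by −1.06 on the log2 scale, sample 2 minus sample 1. Under Dex, 4 h minus 2 h, the log2 difference was −0.3157 for CSF1, −1.154 for CSF2, 0.5472 for IL1R1 and −0.8541 for IL1RAP. Under CpdA it was −0.2753 for CSF1. Both samples at 4 h lay on the same side of both samples at 2 h in each of the 5 pairs. The pairs were listed because they were called, so this separation adds no support. Of all genes tested, 13.6% were called between the times of Dex and 12.4% between those of CpdA. The calls of CSF2 under Dex and of CSF1 under both ligands did not hold without some single samples. The direction was opposite for IL1R1 and IL1RAP, the chains of one receptor.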

How the results depend on the processing

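Of 1116 member values recomputed under the alternatives, 1020 kept their direction and side of the threshold, 57 lost a call, 26 gained one and 13 changed sign. The values that changed were 36 for CSF2, 16 each for CSF1 and CSF3, 12 for IL1B, 11 for IL1A, 3 for IL1RAP and 2 for IL1R1. A stricter filter, 1 RPKM or more in all samples, left CSF1, IL1R1 and IL1RAP to test, by construction, so the members called were 3, 3, 1 and 1 at Dex 2 h, Dex 4 h, CpdA 2 h and CpdA 4 h, and 2 and 3 for Dex against CpdA at 2 h and 4 h. At CpdA 2 h the count of 3 became 1 with no filter and 0 with only the 4 samples of the comparison. Between 4 h and 2 h of CpdA the count of 1 became 3 with only the 4 samples and 3 without the vehicle samples. Median scaling changed the sign of CSF3 between 4 h and 2 h of CpdA to 0.01227. The cause of these changes was not tested. In this paragraph the counts of members called stand without the share of all genes called under the same setting. Nothing about the members is read from these counts. With 1 sample left out, the lone sample was assumed to vary like the other groups. The members called then ranged from 0 to 3 at CpdA 2 h, from 2 to 4 for Dex 4 h against 2 h and from 0 to 3 for CpdA 4 h against 2 h. Log2 differences that changed sign ranged, for IL1A, from −0.61 to 0.394 at Dex 2 h, from −0.7001 to 0.304 at Dex 4 h, from −0.03108 to 0.973 at CpdA 2 h and from −0.3045 to 0.6996 at CpdA 4 h. They ranged from −0.4464 to 0.6586 for IL1B at CpdA 2 h, from −0.06455 to 0.1199 and from −0.00872 to 0.1757 for IL1RAP at CpdA 2 h and 4 h. Between 4 h and 2 h of CpdA they ranged from −0.04446 to 0.1737 for IL1R1, from −0.09352 to 0.09056 for CSF3 and from −0.01166 to 0.1233 for IL1RAP.

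Samples sharing a replicate number were not treated as paired, since deviations of same-numbered samples correlated at −0.0568 to 0.198 over 10 pairs of groups, above 0.1 in 3 and not in all. These correlations cover all genes tested, and single genes can differ. Of the 7 members tested, only IL1RAP kept the same order in all 5 groups, with sample 1 higher. CSF1 was higher in sample 2 in the 4 treated groups and in sample 1 with vehicle. The replicate block lost 1 call, CSF2 at Dex 4 h against 2 h (−1.154, adjusted p = 0.051), so that 3 members were called there, and changed no other call of a member. Over all genes it gave 1454, 3763, 918 and 2884 calls at Dex 2 h, Dex 4 h, CpdA 2 h and CpdA 4 h. Counts over all genes moved as well. With 1 sample left out they ran from 766 to 1710 at Dex 2 h (1311 with all samples), 2772 to 4772 at Dex 4 h (3487), 216 to 1446 at CpdA 2 h (786) and 1190 to 3637 at CpdA 4 h (2609). They ran from 959 to 2297 (1743) and 2759 to 5183 (4241) for Dex against CpdA at 2 h and 4 h, and from 592 to 3440 (1725) and 261 to 2500 (1577) for 4 h against 2 h of Dex and CpdA. With only the 4 samples of the comparison they were 1775 at Dex 4 h, 480 at CpdA 2 h, 696 for Dex 4 h against 2 h and 3500 for CpdA 4 h against 2 h. Depth limits the genes with few reads, CSF3 outside Dex, IL1B under Dex and IL1RL1 throughout.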
